A study of Homo sapiens with 9 samples.

Results

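Cadherins and protocadherins, without E-cadherin (CDH1) and N-cadherin (CDH2), were described in SNU-398 cells, a human hepatocellular carcinoma (HCC) line, with and without EMX1 overexpression. Members were taken by gene symbol (CDH or PCDH symbols, the latter clustered or not), with no use of their values. Of the 60642 gene names in the count table, 94 were members: 16 classical cadherins (3 of type I and 13 of type II), 5 other cadherins, 14 non-clustered protocadherins and 59 clustered protocadherins (16 PCDHA, 19 PCDHB and 24 PCDHG), among them 6 pseudogenes. RNA-seq was made from 3 groups of 3 libraries each. The cells had received, by lentivirus, the control vector (vector control), the full-length homeobox factor EMX1 (EMX1-FL) or its isoform with another terminal exon (EMX1-X1). All 3 groups are labelled wild type, carry a lentiviral vector and were selected with puromycin as stable lines. Whether the replicates of a group came from separate infections or from cultures of 1 line is not given in the sources used here, so p-values measure only the spread between these libraries, which may be technical.

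Cadherins are calcium-dependent adhesion receptors. Classical cadherins bind like molecules on neighbouring cells, and their tails hold catenins that tie the junction to actin. Protocadherins lack that catenin site, adhere weakly and are best known from the nervous system, where the PCDHA, PCDHB and PCDHG clusters on chromosome 5 give single neurons a surface identity. In the PCDHA and PCDHG clusters each gene has its own promoter and large variable exon, which is spliced to constant exons common to the whole cluster, whereas a PCDHB gene is mostly 1 exon. CTCF and cohesin bind near these promoters and bring them to distant enhancers.

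The constant exons bear on every value of the clustered genes, because a read pair that lies within them overlaps all genes of the cluster and was not counted under the counting defaults. In the annotation of the count table, 15 of the 16 PCDHA genes and 22 of the 24 PCDHG genes held all 3 coding constant exons. On GRCh38 (GENCODE release 29, plus strand) the first constant exon of PCDHA lies at chr5:140978949-140979007 and that of PCDHG at chr5:141494807-141494865. Both have 59 bases, of which 39 (66.1%) were identical. They are shown because a read pair within them could not be assigned to a gene, with the bases that differ in capitals.
PCDHA constant exon 1: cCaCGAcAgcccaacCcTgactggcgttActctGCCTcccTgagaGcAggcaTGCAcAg
PCDHG constant exon 1: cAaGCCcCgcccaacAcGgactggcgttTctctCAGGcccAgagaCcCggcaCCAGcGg

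Each variable exon has a promoter of its own, and these promoters are shown for what they share. RefSeq promoters (GRCh38.p14, 250 bases before the start to 50 after) were at hand for 69 of the members. The word of 9 bases found in the most promoters of each cluster was read out, with no test, since it was picked for being frequent. In PCDHA it was GATGTCGCT, in 9 of 13 genes. In PCDHB it was GGTGGCGCT, in 13 of 14 genes. In PCDHG it was GCGCCGCTG, in 10 of 20 genes. Searched on both strands, these words stood in 0.128%, 0.619% and 1.59% of all 27305 genes with a promoter, and in 0 of the 22 members outside the clusters. The 3 words have CGCT in common. The 3 members with the highest TPM (transcripts per 1000000, a level per length) that carry the word upstream of the start are shown for each cluster, all on the plus strand, with the word in capitals.
PCDHA10, chr5:140855832-140855880: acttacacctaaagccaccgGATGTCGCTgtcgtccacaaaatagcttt
PCDHA6, chr5:140827888-140827936: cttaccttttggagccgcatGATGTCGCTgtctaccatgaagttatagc
PCDHA12, chr5:140875235-140875283: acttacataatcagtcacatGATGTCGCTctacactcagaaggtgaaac
PCDHB5, chr5:141135170-141135205: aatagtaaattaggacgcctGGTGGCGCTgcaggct
PCDHB3, chr5:141100384-141100432: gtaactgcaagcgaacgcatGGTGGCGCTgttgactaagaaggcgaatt
PCDHB2, chr5:141094535-141094583: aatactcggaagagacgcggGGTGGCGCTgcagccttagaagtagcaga
PCDHGA10, chr5:141412923-141412971: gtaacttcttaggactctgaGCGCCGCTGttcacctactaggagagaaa
PCDHGA11, chr5:141420964-141421012: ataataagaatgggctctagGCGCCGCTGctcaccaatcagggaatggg
PCDHGA1, chr5:141330395-141330443: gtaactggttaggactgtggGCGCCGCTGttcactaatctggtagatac

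Counted from the start site, the word began at -86 to -43 in PCDHA, at -84 to -16 in PCDHB (12 genes with the whole word upstream) and at -99 to -44 in PCDHG. The levels of genes with and without the word did not run one way over the clusters. In PCDHA the 9 genes with it had a median of 2.01 TPM and the 4 without it 3.54 TPM. In PCDHB the 13 genes with it had TPM from 0.296 to 28.3 (median 4.86), and PCDHB1, without it, had 0.082 TPM. In PCDHG the 10 genes with it had TPM from 0.063 to 8.76 (median 0.21) and the 10 without it from 0.046 to 2.62 (median 1.29). TAATTA, a core bound by many homeodomain proteins, stood in the promoters of 10 of the 69 members (14.5%) and of 5.95% of all genes. Neither PCDH17 nor PCDHGC4, the genes with the smallest p-values below, was among the 10, which says only that these letters are not in this window.

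The 9 libraries had 21562703 to 25197970 counted read pairs each. EMX1 itself stood at 9.34 to 12.9 CPM (counts per 1000000 counted read pairs, with TMM-normalized library sizes) in the vector control, 135 to 251 in EMX1-FL cells and 145 to 294 in EMX1-X1 cells. Counts per gene do not tell the isoforms, or the introduced from the cell's own transcript, apart. Libraries fell into clusters that the groups do not explain: vector control 1 and 2, EMX1-FL 2 and 3 and EMX1-X1 1 (cluster A), against vector control 3, EMX1-FL 1 and EMX1-X1 2 and 3 (cluster B), along a principal component with 39.6% of the variance. The clusters were cut at the sign of this component, which was computed from the same log2 CPM values. Tests between the clusters thus return differences that the cut was made on. Of the markers of hepatocytes and hepatoma cells, 2 of 12 passed the filter on low counts. AFP and TTR were listed at 0 in every library, ALB reached 0.454 to 2.77 TPM and GPC3 14.5 to 26.7 TPM. Of the 5 mesenchymal markers, VIM reached 703 to 1116 TPM, FN1 33.1 to 62.5 TPM and ZEB2 16.7 to 33.4 TPM. The other mesenchymal markers were low, ZEB1 at 0.202 to 1.28 TPM and SPARC at 0.376 to 1.62 TPM. The summed TPM of the hepatocyte list was 15.5 to 22.4 in the vector control, 18.6 to 30.1 with EMX1-FL and 18.0 to 22.7 with EMX1-X1, and that of the 8 neural markers 8.50 to 10.5, 10.8 to 17.2 and 10.1 to 17.3. For the 5 mesenchymal markers the sums were 774 to 1016, 934 to 1207 and 820 to 907 TPM. The 6 endothelial markers summed to at most 0.465 TPM and the 5 leukocyte markers to at most 0.376 TPM in any library. At the threshold for differentially expressed genes given below, ALB was higher in both EMX1 groups than in the vector control. The log2 fold changes were 1.46 with EMX1-FL (adjusted p = 0.467) and 1.11 with EMX1-X1 (adjusted p = 0.576), both by edgeR. The mesenchymal ZEB1 was called in EMX1-FL cells (1.22, adjusted p = 0.837, edgeR), with 0.665, 2.95 and 2.86 CPM. Its vector control libraries had 1.46, 0.786 and 0.536 CPM, so the groups overlapped. FN1, short of the fold threshold, had 161 to 175 CPM in the vector control, 227 to 277 with EMX1-FL and 242 to 254 with EMX1-X1. Its log2 fold changes were 0.60 and 0.55 (unadjusted p = 0.00133 and 0.00256, adjusted p = 0.216 and 0.433, edgeR). The neural SNAP25 was 0.82 with EMX1-FL (unadjusted p = 0.0109, adjusted p = 0.566, edgeR). Of all genes, 5.8% and 8.11% had an unadjusted p under 0.05 in these comparisons. The part of these markers in the results was not tested.

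SNU-398 cells expressed a broad but uneven set of cadherins. Of the 87 members that are neither pseudogenes nor on the Y chromosome, 8 had a mean TPM of at least 10, 38 lay from 1 to under 10, 35 were above 0 and under 1, and 6 were listed at 0. The highest were CDH24, a type II classical cadherin (56.2 ± 10.8 TPM, SD over the 9 libraries), and PCDH9, a delta-1 protocadherin (51.6 ± 15.3 TPM, SD, n = 9), whose ranges of 46.7 to 75.7 and 31.8 to 71.1 overlapped. Next came PCDHB5 at 28.3 ± 3.57 TPM, PCDH7 (delta-1) at 27.7 ± 1.66 TPM and PCDH17, a delta-2 protocadherin often silenced by promoter methylation in carcinomas, at 21.8 ± 7.50 TPM (SD, n = 9). In the order of mean TPM, every neighbouring pair above 0 had overlapping ranges. Ranges ignore that both genes were read in the same libraries, so their overlap does not show that neighbours had equal levels. PCDHB3, for example, stood above its neighbour PCDH18 in every library.

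By class, 7 of 16 classical cadherins, 3 of 5 other cadherins, 9 of 14 non-clustered, 14 of 16 PCDHA, 17 of 19 PCDHB and 16 of 24 PCDHG genes passed the filter on low counts, 66 in all. Of the other 28 members, 7 were listed at 0 in every library and 21 had counts but too few for the test. Among classical cadherins, CDH24 was followed by CDH12 at 16.9 ± 2.10 TPM, CDH4 (R-cadherin) at 8.50 ± 2.03 TPM and CDH18 at 6.95 ± 1.37 TPM (SD, n = 9). CDH3 (P-cadherin) had 0.532 ± 0.234 TPM, and CDH11, the cadherin of osteoblasts and other mesenchymal cells, 0.0495 ± 0.0499 TPM (SD, n = 9). CDH5, the endothelial cadherin, was listed at 0 in every library, which allows up to 3 counts, 0.119 to 0.139 CPM. CDH6 (K-cadherin) had 10, 1 and 1 counts in the vector control libraries and 0 in the 6 EMX1 libraries, too few for the filter. Of the other cadherins, CDH23, a part of the hair cell tip link, had 1.24 ± 0.359 TPM, CDH26 0.397 ± 0.219 TPM, CDH17 (liver-intestine cadherin) 0.142 ± 0.105 TPM and CDH13 (T-cadherin, anchored by lipid) 0.122 ± 0.0545 TPM (SD, n = 9).

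PCDHB and PCDHG were each led by 1 gene, whereas PCDHA10 (7.59 ± 1.88 TPM) and PCDHA11 (7.11 ± 1.24 TPM, SD, n = 9) overlapped, with PCDHA11 the higher in 4 of 9 libraries. PCDHA10 held 26.9% to 37.6% of the read pairs counted on PCDHA genes in a library, a share that also reflects its 15664 exon bases beside the 6284 of PCDHA11. PCDHB5 held 25.7% to 39.7% of those on PCDHB genes, with PCDHB3 next at 13.04 ± 2.28 TPM (SD, n = 9). PCDHGA10 had 8.764 ± 1.155 TPM and held 33.5% to 45.4% of those on PCDHG genes, whereas the second, PCDHGA5, had 2.62 ± 0.526 TPM (SD, n = 9). The C-type genes at the end of that cluster are not subject to the random choice known from neurons. PCDHGC3 (1.93 ± 0.543 TPM) and PCDHGC4 (1.70 ± 0.533 TPM) came next after these, and PCDHGC5 had 0.263 ± 0.171 TPM (SD, n = 9). PCDH9 alone made up 34.8% to 49.9% of all read pairs on members, which also reflects its 30944 exon bases.

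These levels depend on how much of a gene no other gene overlaps. The median share of exon bases shared with another gene was 50.7% for PCDHA genes (21.3% to 100%), 43.8% for PCDHG genes (0% to 64.4%) and 3.50% for PCDHB genes (0% to 43.9%), against a median of 0% in the classical, other and non-clustered classes. PCDHA1 (99.9% shared), PCDHA14 (100%) and the non-clustered PCDH20 (95.8%, with AL592490.1) were listed at 0 in all libraries, and with so few bases of their own such a 0 does not show absence of the transcript. Divided by the bases that no other gene shares, PCDHA10 had 12 TPM, and PCDHA11 went from 7.11 to 13.3 TPM, so PCDHA11 then had the higher mean. PCDHGA10 reached 13.05 TPM and PCDHB2 went from 7.35 to 13.1 TPM, whereas CDH24 and PCDH1 kept their values. PCDHB genes are also close paralogs, and read pairs that map to several of them may be lost or misplaced.

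**Figure D1:**
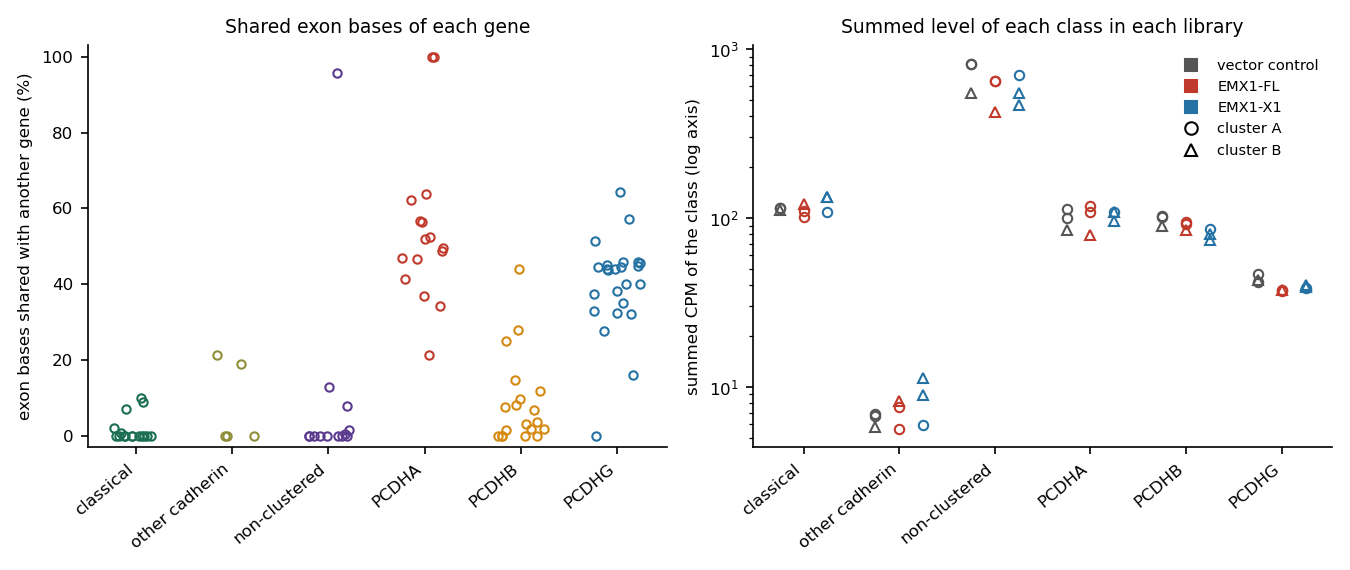
The left panel gives the percent of exon bases that each member shares with another gene, by class, 1 point a gene. The right panel gives, on a log axis, the summed CPM of each class in each library, coloured by group and shaped by cluster of libraries; PCDHG sums lay at 41.7 to 46.6 in the vector control and at 37.0 to 39.8 in the 6 EMX1 libraries.

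Summed over a class, some levels did not overlap between groups, and this depended on the leading gene of the class. The PCDHG genes summed to 43.6 ± 2.59 CPM in the vector control, 37.4 ± 0.309 in EMX1-FL cells and 39.1 ± 0.655 in EMX1-X1 cells (SD, n = 3). Every EMX1 library was below every vector library, also with total counts in place of TMM sizes. Without PCDHGA10 the sums were 24.9 ± 0.975, 23.2 ± 1.24 and 24.2 ± 0.619 CPM (SD, n = 3) and the groups overlapped. The PCDHB genes summed to 97.7 ± 7.06, 90.3 ± 5.44 and 79.9 ± 5.99 CPM (SD, n = 3). Here the EMX1-X1 libraries (73.7 to 85.6) lay below the vector libraries (89.6 to 102.7), a gap that closed with total counts (73.7 to 86.6 against 86.3 to 101.7). Without PCDHB5, the leading gene, these libraries overlapped as well (49.3 to 63.2 against 61.3 to 74.3). PCDHA sums overlapped, with 99.4 ± 13.98, 101.7 ± 19.7 and 103.9 ± 7.18 CPM (SD, n = 3). The non-clustered genes summed to 728 ± 152, 573 ± 130 and 572 ± 123 CPM (SD, n = 3), and the groups overlapped. Without PCDH9, a choice made after seeing the data, they summed to 217.7 ± 11.96 CPM in the vector control, 168.4 ± 13.8 with EMX1-FL and 188.0 ± 7.43 with EMX1-X1 (SD, n = 3), and the vector libraries (203.9 to 225.0) lay above both (154.4 to 181.9 and 180.0 to 194.8). PCDH17 alone had means of 70.6, 37.0 and 42.6 CPM in the 3 groups, the larger part of that gap. These sums are a description with no test. In bulk libraries, fewer cells that express a gene and less mRNA per cell cannot be told apart.

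To ask which members differed with full-length EMX1, EMX1-FL cells were compared with the vector control. Differentially expressed genes (DEGs) needed an unadjusted p under 0.05 and a log2 fold change of 1 or more in size, either way. The p-values are those of the quasi-likelihood test in edgeR, adjusted by the Benjamini-Hochberg method over all genes tested. No member was a DEG, while 2.42% of all 18574 genes tested were, and 0.07% also had an adjusted p under 0.05. By the unadjusted p alone, edgeR had 3 of 66 members under 0.05 (5.8% of all genes), DESeq2 had 4 and limma on log2(TPM + 1) had 2, and none of the 3 tools gave a DEG. PCDH17 and PCDHAC2 were on the lower side and PCDHGC4 on the higher side. The 95% interval of the fold change lay within 1 log2 unit on either side of 0 for 34 of the 66 members, so for the other 32 a change of that size was not excluded at this depth and spread.

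PCDH17 (chr13:57631744-57729311 on GRCh38) had the smallest p among members. Its level was 75.1, 79.3 and 57.6 CPM in vector control libraries 1 to 3, and 25.2, 42.0 and 43.8 CPM in the EMX1-FL libraries. In EMX1-X1 cells it was 50.7, 41.9 and 35.1 CPM. Every EMX1 library of either isoform lay below the lowest vector library. For EMX1-FL the log2 fold change was -0.93 (standard error 0.24, 95% interval -1.46 to -0.41, unadjusted p = 0.00233, adjusted p = 0.276, edgeR). It was thus 0.524 of the vector level, short of the fold threshold, and passed it when vector control 3, EMX1-FL 2 or EMX1-FL 3 was left out (-1.07, -1.05 and -1.07). PCDH17 was itself lower in cluster B than in cluster A by a log2 difference of -0.52 (adjusted p = 0.00144, edgeR, with clusters cut on these data). Within cluster A the difference of EMX1-FL from vector control was -0.85, and within cluster B, with 1 library each, -1.19. The part of the clusters in the group difference was not tested. The adjusted p was 0.0349 with DESeq2, 0.0013 with the cluster of libraries as a term, 0.0165 without the filter on low counts and 0.795 under the replicate block (edgeR but for the first). As the cluster term was cut on these same data, it can make the spread, and with it the p-value, too small. For EMX1-X1 against vector control, which shares the vector libraries, the log2 fold change was -0.73 (standard error 0.24, unadjusted p = 0.0105, adjusted p = 0.536, edgeR). It was -0.61 within cluster A, with 1 EMX1-X1 library, and -0.59 within cluster B, with 1 vector library.

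Other members of the non-clustered class gave smaller values. PCDH9 stood at 593, 590 and 348 CPM in the vector control, 269, 463 and 481 CPM in EMX1-FL cells and 516, 350 and 285 CPM in EMX1-X1 cells. The groups overlapped, and the libraries of cluster B were the low ones in each group. EMX1-FL against vector control gave -0.34 on the log2 scale (standard error 0.29, adjusted p = 0.997, edgeR), and -0.51 with an offset for GC content that was chosen after seeing the data (edgeR, adjusted p from 0.00821 to 0.0827 with the offset alone, with the replicate block or with the cluster of libraries). The cluster term was cut on these same data here too, so p-values with it may be too small. PCDH7 had 97.9 ± 1.24 CPM in vector control cells and 86.1 ± 7.44 with EMX1-FL (SD, n = 3), with no overlap and a log2 fold change of -0.19 (unadjusted p = 0.233, edgeR). PCDH10, a delta-2 member silenced by methylation in many tumors, had 3.26 ± 0.126, 3.86 ± 1.27 and 4.46 ± 1.08 CPM in the 3 groups (SD, n = 3), which overlapped.

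In the clustered classes PCDHGC4 (chr5:141484997-141512979 on GRCh38) was the gene with an unadjusted p under 0.05 on the higher side. It had 1.199, 1.88 and 1.65 CPM in the vector control, 3.50, 2.40 and 2.86 CPM in EMX1-FL cells and 2.25, 2.45 and 2.38 CPM in EMX1-X1 cells. All 6 EMX1 libraries lay above the 3 vector libraries. These values rest on 28 to 79 counts a library, from a gene with 43.8% of its exon bases shared. For EMX1-FL the log2 fold change was 0.89 (standard error 0.28, 95% interval 0.27 to 1.51, unadjusted p = 0.00899, adjusted p = 0.528, edgeR), or 1.85 times the vector level. It was 0.77 within cluster A and, with 1 library of each group, 1.05 within cluster B. Without vector control 2 it was 1.02, past the fold threshold. For EMX1-X1 it was 0.58 (unadjusted p = 0.0644, edgeR).

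PCDHAC2, the C-type gene at the end of the PCDHA cluster, was chosen after its values were seen. It had 5.10, 4.98 and 5.19 CPM in the vector control, 3.68, 2.95 and 3.19 CPM in EMX1-FL cells and 3.04, 3.74 and 4.93 CPM in EMX1-X1 cells. The vector libraries lay close together and above all others. For EMX1-FL the log2 fold change was -0.64 (standard error 0.24, unadjusted p = 0.0217, adjusted p = 0.707, edgeR). PCDHGA10, the leading gene of its cluster, stood at 18.7 ± 2.49 CPM in vector control cells, at 14.2 ± 1.53 with EMX1-FL and at 14.9 ± 1.26 with EMX1-X1 (SD, n = 3). Its log2 fold changes were -0.40 and -0.33 (unadjusted p = 0.0531 and 0.102, edgeR). Two-sided exact permutation tests of the log2 CPM gave p = 0.1 for PCDH17, PCDHGC4 and PCDHAC2 in this comparison, the smallest value that 3 libraries against 3 allow.

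**Figure D2:**
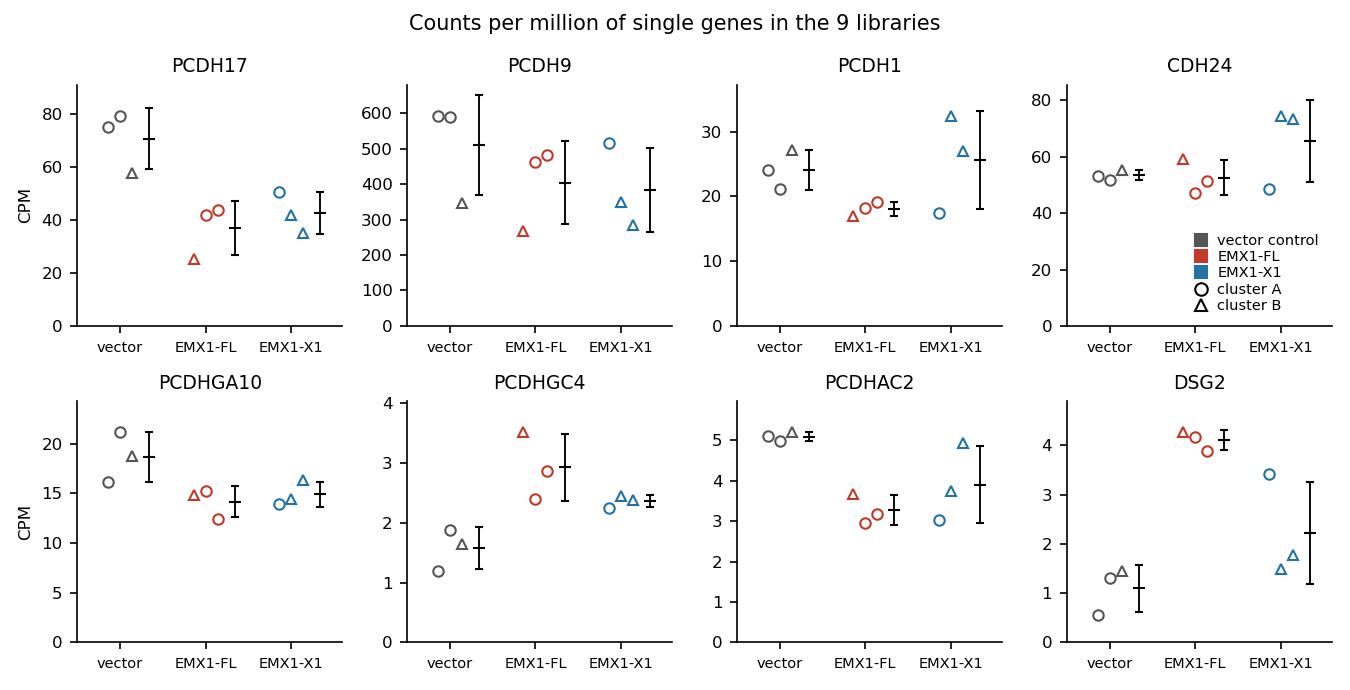
Each panel gives the CPM of a gene in the 9 libraries, coloured by group and shaped by cluster of libraries, with the mean and SD of each group (n = 3) beside the points. PCDH17 lay at 57.6 to 79.3 CPM in the vector control and at 25.2 to 50.7 in the EMX1 libraries, while the groups overlapped for PCDH9 and CDH24.

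Across the 66 members tested, 25 had a positive and 41 a negative log2 fold change in EMX1-FL cells, with a median of -0.11 beside 0.04 over all genes tested. The medians were -0.02 for the 7 classical cadherins, 0.12 for the 3 other cadherins, -0.19 for the 9 non-clustered, -0.11 for the 14 PCDHA, -0.13 for the 17 PCDHB and -0.22 for the 16 PCDHG genes. With single libraries left out, the medians of the non-clustered (-0.27 to -0.11), PCDHB (-0.29 without vector control 3 to -0.03 without vector control 2) and PCDHG genes (-0.28 to -0.10) were negative each time. Those of the others turned: classical cadherins to 0.10 without EMX1-FL 2, other cadherins to -0.07 or -0.09 without EMX1-FL 1 or 3, and PCDHA to 0.08 without EMX1-FL 1. The groups did not overlap for 13 members, 19.7% (10.5% of all genes). Of these, 11 were lower (5.14% of all genes) and 2 higher (5.36% of all genes). The 11 were PCDH1, PCDH7, PCDH17, PCDHAC2, PCDHB10, PCDHB14, the pseudogene PCDHB19P, PCDHGA5, PCDHGA6, PCDHGA10 and PCDHGA12, and the higher ones were PCDHGC4 and the pseudogene PCDHB17P. A fold change of at least 1 with a p over 0.05 was seen for PCDHB19P (-1.23) and PCDHGA7 (-1.02), which had 93 and 107 counts over all libraries.

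**Figure D3:**
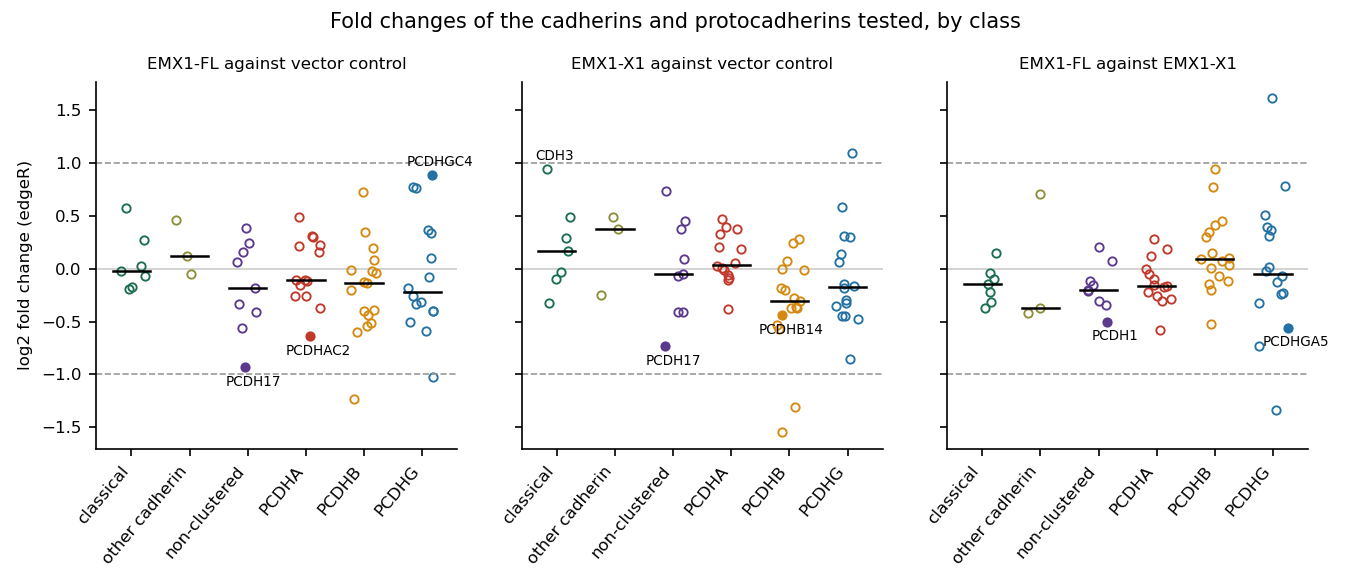
Each point is a member tested, with its class on the horizontal axis and its log2 fold change from edgeR on the vertical axis, in a panel for each comparison. Filled points had an unadjusted p under 0.05, black bars are class medians, and dashed lines mark log2 fold changes of 1 and -1. No filled point lay beyond the dashed lines in any panel.

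EMX1-X1 cells were compared with the same vector libraries to see what the spliced isoform alone went with. No member was a DEG, against 2.5% of all genes tested, and 0.00538% of all genes passed the adjusted threshold. The unadjusted p was under 0.05 for 2 members by edgeR (8.11% of all genes), PCDH17 and PCDHB14, for 3 by DESeq2 and for 2 by limma on log2(TPM + 1). PCDHB14, named after its values were seen, had 8.69, 8.73 and 8.37 CPM in the vector control and 7.20, 6.32 and 5.53 CPM in EMX1-X1 cells. In EMX1-FL cells it had 5.81, 6.95 and 6.79 CPM. The vector libraries were above all EMX1 libraries, and the log2 fold change was -0.44 for EMX1-X1 (standard error 0.19, unadjusted p = 0.0447, adjusted p = 0.605, edgeR) and -0.40 for EMX1-FL (unadjusted p = 0.0633). PCDHB5 stood at 27.8, 28.4 and 28.3 CPM in the vector control and at 22.4, 21.5 and 24.4 CPM in EMX1-X1 cells, a log2 fold change of -0.31 (unadjusted p = 0.109, edgeR).

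Of the 7 classical cadherins tested, CDH3 had the largest value here. CDH22, with 0, 0 and 1 counts in the vector control and 4, 8 and 7 in EMX1-X1 cells, did not pass the filter. CDH3 had 0.514, 0.524 and 0.742 CPM in the vector control, 1.29, 0.548 and 0.831 CPM in EMX1-FL cells and 0.791, 1.04 and 1.62 CPM in EMX1-X1 cells. The EMX1-X1 libraries lay above the vector libraries, whereas those of EMX1-FL overlapped them. The log2 fold change for EMX1-X1 was 0.95 (standard error 0.46, 95% interval -0.06 to 1.95, unadjusted p = 0.0632, adjusted p = 0.62, edgeR), and CDH3 became a DEG, at 1.154, without EMX1-X1 1. CDH24 had 53.4 ± 1.83 CPM in the vector control and 65.5 ± 14.6 in EMX1-X1 cells (SD, n = 3), where the 2 libraries of cluster B held 74.4 and 73.5 CPM and that of cluster A 48.6 CPM.

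Over the 66 members 28 values were positive and 38 negative, with a median of -0.06 beside 0.01 over all genes. Class medians were 0.17 for classical cadherins, 0.37 for other cadherins, -0.05 for non-clustered, 0.04 for PCDHA, -0.31 for PCDHB and -0.18 for PCDHG genes. With the GC offset, that of the classical cadherins turned to -0.13 and that of the non-clustered genes to 0.05. With single libraries left out, other cadherins turned to -0.10 without vector control 2, non-clustered genes to 0.08 without vector control 1 and to 0.05 without EMX1-X1 3, and PCDHA to -0.05 without vector control 3. PCDHB stayed between -0.38 and -0.19, and was -0.17 with the cluster of libraries as a term. PCDHG ranged from -0.27 to -0.05, the latter without EMX1-X1 3. In the PCDHB class 14 of 17 values were negative. The groups did not overlap for 13 members (19.7%, against 14.7% of all genes), 8 of them lower (6.67% of all genes) and 5 higher (8.03% of all genes). The lower ones were PCDH7, PCDH17, PCDHAC2, PCDHB2, PCDHB5, PCDHB14, PCDHB16 and PCDHGA11, and the higher ones CDH3, PCDH15, PCDHA6, PCDHA13 and PCDHGC4. Among genes of 59 to 93 counts in all, PCDHB11 (-1.54), PCDHB19P (-1.31) and PCDHGA4 (1.09) passed the fold but not the p.

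The 2 isoforms were compared with each other to see where full-length EMX1 and its spliced form differed. No member was a DEG, against 1.42% of all genes, and 0% of genes passed the adjusted threshold. The unadjusted p was under 0.05 for 2 members by edgeR (7.63% of all genes), for 3 by DESeq2 and for 2 by limma on log2(TPM + 1). PCDHGA5 had 3.28, 3.33 and 3.42 CPM in EMX1-FL cells and 4.41, 4.61 and 5.73 CPM in EMX1-X1 cells, beside 3.64, 3.71 and 4.62 CPM in the vector control. The isoforms did not overlap, with a log2 fold change of -0.56 (standard error 0.22, 95% interval -1.04 to -0.07, unadjusted p = 0.0285, adjusted p = 0.611, edgeR). The value was -0.38 within cluster A, with 1 EMX1-X1 library, and -0.63 within cluster B, with 1 EMX1-FL library. PCDH1, a delta-1 protocadherin of airway epithelium, had 17.0, 18.2 and 19.1 CPM in EMX1-FL cells and 17.4, 32.4 and 26.9 CPM in EMX1-X1 cells. The groups overlapped. The log2 fold change was -0.50 (standard error 0.23, unadjusted p = 0.0484, adjusted p = 0.611, edgeR), with 0.10 within cluster A and -0.80 within cluster B. The within-cluster values again rest on 1 library of an isoform in each cluster.

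Of the 66 members, 26 were higher and 40 lower in EMX1-FL than in EMX1-X1 cells, with a median of -0.10 beside 0.02 over all genes. PCDHA genes had 11 of 14 values negative and PCDHB genes 12 of 17 positive, with medians of -0.16 and 0.09, the latter -0.02 with the cluster of libraries as a term and just below 0 without EMX1-X1 3. The isoforms did not overlap for 7 members (10.6%, against 8.38% of all genes), 5 lower (4.49% of all genes) and 2 higher (3.89% of all genes). For PCDH17 the isoforms differed by -0.20 (95% interval -0.73 to 0.32, unadjusted p = 0.416, edgeR), so neither a difference nor its absence was shown. The value was -0.40 with the cluster of libraries as a term (unadjusted p = 0.00688, edgeR), a term that was cut on these same data. In that setting the smallest adjusted p of any member between the isoforms was 0.237 (edgeR). For PCDHGC4 the value was 0.31 (95% interval -0.30 to 0.91, unadjusted p = 0.292, edgeR).

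Members were also compared between the clusters of libraries, which have libraries of every group. As the clusters were cut on these same values, the p-values describe them and are not evidence that the members differ. At an adjusted p under 0.05 (edgeR), 10 members were higher in cluster A and 2 in cluster B, 18.2% of those tested beside 42.5% of all genes. On the side of A, the largest log2 differences (B minus A) were those of PCDHGB3 (-0.78, adjusted p = 0.049, 310 counts in all), PCDH9 (-0.76, adjusted p = 0.00019), PCDHA2 (-0.64, adjusted p = 0.00824), PCDHA10 (-0.54, adjusted p = 0.00337) and PCDH17. On the side of B were CDH4 (0.56, adjusted p = 0.0062) and CDH24 (0.32, adjusted p = 0.0252), all by edgeR. PCDH9 had a GC content of 34.3% and CDH24 of 64.2%. Across the 66 members, the Spearman correlation of GC content with this difference was 0.284, and across the 17752 genes tested that had a GC content it was 0.789. Both are across genes of the same libraries, which are not independent replicates.

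**Figure D4:**
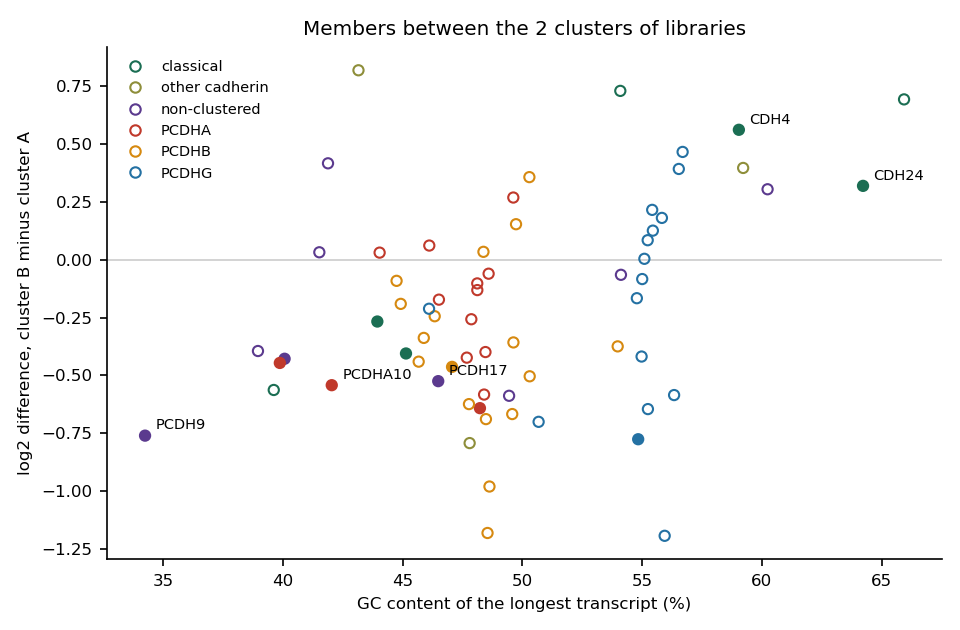
Each point is a member tested, with the GC content of its longest transcript (%) on the horizontal axis and its log2 difference between clusters B and A of the libraries on the vertical axis. Filled points had an adjusted p under 0.05 between clusters that were cut on these same data, and colours give the class. PCDH9, at 34.3% GC, stood at -0.76 and CDH24, at 64.2%, at 0.32.

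Known partners and relatives of the cadherins were read from 5 lists. Of 16 catenins, plakophilins and other junction proteins (VCL, AFDN and VEZT), 13 were tested. In EMX1-FL cells 2 rose and 0 fell at the threshold for DEGs, and in EMX1-X1 cells 1 rose and 0 fell, beside 2.42% and 2.5% of all genes called in either direction. CTNNA2, the neural alpha-catenin, rose in both, from 0.257, 0.175 and 0.124 CPM in the vector control to 0.577, 0.632 and 0.554 CPM in EMX1-FL cells (log2 fold change 1.64, adjusted p = 0.552, edgeR). The vector values are near the floor of 3 counts (0.119 to 0.139 CPM), so these changes rest on few read pairs. In EMX1-X1 cells it reached 0.416, 0.457 and 0.727 CPM (log2 fold change 1.51, adjusted p = 0.559, edgeR). PKP2, a plakophilin of desmosomes, rose in EMX1-FL cells from 3.13, 4.36 and 3.83 CPM to 6.03, 9.31 and 8.08 CPM. On the log2 scale this was 1.05 (standard error 0.25, adjusted p = 0.216, edgeR), and 0.88, short of the fold threshold, without EMX1-FL 2. For EMX1-X1 it was 0.64. The CTNNA2 call for EMX1-X1 was lost without vector control 3 (1.27) or EMX1-X1 3 (1.22). By the unadjusted p under 0.05 alone, 2 genes of this list were higher with EMX1-FL and 3 with EMX1-X1, and 0 lower (5.8% and 8.11% of all genes). Between the isoforms JUP was lower with EMX1-FL (-0.85, unadjusted p = 0.0141, adjusted p = 0.611, edgeR), and 7.63% of all genes had such a p. JUP had 2.22, 2.65 and 1.57 CPM with EMX1-FL, 2.70, 4.24 and 4.68 with EMX1-X1 and 2.65, 3.01 and 3.13 in the vector control.

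Of 7 desmosomal cadherins, the adhesion receptors of desmosomes, 2 were tested, and DSG2 (desmoglein 2) rose in both comparisons with the vector control. It had 0.557, 1.31 and 1.44 CPM in the vector control, 4.26, 4.17 and 3.88 CPM in EMX1-FL cells and 3.41, 1.496 and 1.78 CPM in EMX1-X1 cells. The EMX1-FL libraries stood above all others. The log2 fold change was 1.89 for EMX1-FL (standard error 0.40, unadjusted p = 0.000538, adjusted p = 0.156) and 1.01 for EMX1-X1 (adjusted p = 0.575), both by edgeR. For EMX1-X1 it was 1.89 within cluster A, with 1 EMX1-X1 library, and 0.17 within cluster B, with 1 vector library. The call was lost without EMX1-X1 1 (0.57), without vector control 1 (0.69) and under the replicate block (0.98). Of the 14 large and related cadherins, the 12 regulators of the clusters (CTCF, cohesin subunits and chromatin factors) and the 7 sheddase and secretase genes tested, none was a DEG in any of the 3 comparisons by edgeR. By the unadjusted p under 0.05 alone, the 14 large cadherins had 1, 4 and 2 genes in the EMX1-FL, EMX1-X1 and isoform comparisons, the 12 regulators 1, 0 and 0, and the 7 sheddase and secretase genes 0, 0 and 0, beside 5.8%, 8.11% and 7.63% of all genes.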

How the data were processed

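RNA-seq of 9 libraries was analysed, grouped by the sample labels. Per the file headers, the authors deposited unnormalized read-pair counts by gene name, made with featureCounts 2.0.1 (unstranded, Ensembl release 99 of GRCh38) after fastp and STAR, while the labels list featureCounts 2.0.6 and the paper's methods name RSEM. A second table the authors deposited holds TPM on a log2 scale (pseudocount 1), and its values were recomputed from the counts. By the default of featureCounts, pairs that overlap several genes are not counted, and antisense and overlapping genes cannot be told apart.

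Counts were tested with edgeR 4.0.16 in R 4.3.3 (TMM factors, filterByExpr, quasi-likelihood F test, all 9 libraries, group as the only term) with Benjamini-Hochberg adjustment over the 18574 genes tested, and the model was tested on simulated data. The DEG threshold of the paper was used (unadjusted p under 0.05, fold change of 1 or more on the log2 scale, either way). Depth was 21562703 to 25197970 counts a library, and intervals and floors of 3 counts cover counting error only. GC content came from GENCODE 29.

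The members, their classes and the partner and marker lists were chosen with earlier results of these data known. Genes were named if they passed the threshold, were among the 4 highest by TPM in their class, or were of a short list known from tumors, and partner genes if they passed the threshold. Other genes named were chosen after their values were seen. Alternatives were RLE and upper-quartile factors, other filters, DESeq2 1.42.0, limma 3.58.1 on log2 TPM with pseudocounts of 1 and 0.1, 6 libraries alone, the replicate number or the cluster of libraries as a term, each library left out, and, added after seeing the data, a GC offset alone or with the block or the cluster, and class sums with total counts or without the leading gene. The level of the member on the Y chromosome is not given.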

Additional observations from a re-analysis of the deposited data

Results flagged for a closer look

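PCDHGA5 and PCDH1 are listed because the direct test between the overexpression groups had an unadjusted p under 0.05, with log2 fold changes of EMX1-FL against EMX1-X1 of -0.56 for PCDHGA5 and -0.50 for PCDH1 (edgeR, adjusted p = 0.611 for both). PCDHGA5 was lower in every EMX1-FL library than in every EMX1-X1 library. The PCDH1 values overlapped and turned to 0.10 within cluster A of the libraries, which has 1 EMX1-X1 library. Of all genes tested, 7.63% had an unadjusted p under 0.05 in this comparison.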

How the results depend on the processing

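The numbers of members called, 0 in each comparison, were 0 under most settings. For EMX1-FL against vector control the number was 1 without the filter on low counts (CDH6) and 3 with an unadjusted p under 0.05 and no fold change. It ranged from 0 to 3 with single libraries left out, by PCDH17, PCDHGC4, PCDHB11 or PCDHGA7 without vector control 2 or 3 or EMX1-FL 2 or 3. For EMX1-X1 it was 3 without the filter (CDH6, CDH22 and PCDHGB6), 2 by the p alone and 0 to 2 with single libraries left out (PCDHB11, PCDHB19P or CDH3, without vector control 3, EMX1-FL 3 or EMX1-X1 1). Between the isoforms it was 1 without the filter (PCDHGB4), 2 by the p alone, 2 with limma on log2(TPM + 0.1) (PCDHGA7 and PCDHGC5), 1 with the GC offset and 1 with the GC offset and the replicate block (PCDHGC5), and 0 to 1 with single libraries left out (PCDHGA7, PCDHB15 or PCDHB17P, without EMX1-FL 3, EMX1-X1 1 or EMX1-X1 3). The cause was not tested.

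With the replicate number as a block, 1 member was called between the isoforms (PCDHGA7) and 0 in the other comparisons. The labels do not say that a number marks a shared batch. Residuals of libraries with the same number correlated from -0.522 to 0.290 over 9 pairs, and 0 of the 9 libraries correlated best with their own number, so the numbers were not taken as pairs.

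PCDH9 turned between the isoforms from 0.08 to -0.29 with the GC offset, -0.29 with the GC offset and the replicate block and -0.32 with the GC offset and the cluster of libraries. PCDH17 kept an unadjusted p under 0.05 against the vector control under all 22 alternatives in both comparisons, from -1.07 to -0.72 for EMX1-FL and from -0.88 to -0.56 for EMX1-X1. Low counts limit most PCDHG genes.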
